A study of Mus musculus with 9 samples.

Results

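Blood cells that carry CD45 and lack CD144 were compared with endothelial cells that carry CD144 and lack CD45, across all genes of an expression array. Every probe set with 1 gene symbol in the platform annotation was taken, which gave 20405 genes of 21115 probe sets in the table, each with a single probe set. The study sorted 3 populations from the aorta-gonad-mesonephros (AGM) region of E11.5 (mid-gestation) embryos of the mouse strain C57Bl6 and put 3 samples of each on Affymetrix mouse gene arrays. The CD144-CD45+ cells are called HC here and the CD144+CD45- cells EC, and the CD144+CD45+ population (HSPC) enters only the estimate of the spread. The labels give no genetic change and no treatment for any group. They name no further surface marker, so each gate can hold several cell types, and they do not say how embryos were pooled. The p-values therefore measure the spread among these arrays, part or all of which may be technical.

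The AGM surrounds the dorsal aorta, whose endothelium gives rise to blood stem and progenitor cells in mid-gestation. CD144 (VE-cadherin, encoded by Cdh5) joins endothelial cells at adherens junctions, and CD45 (encoded by Ptprc) is a receptor phosphatase of nearly all white blood cells and their progenitors. By this stage the region also holds macrophages and other myeloid cells that were made earlier in the yolk sac and carry CD45 without CD144.

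Both sorted proteins were matched by their genes. Ptprc read 9.87, 10.06 and 9.92 in HC, against 4.50, 4.39 and 4.37 in EC (log2 expression values, 1 per array). The HC and EC arrays did not overlap, and the EC values lay under 4.69, the level used here as background because 95% of the values of 1289 olfactory and vomeronasal receptor genes lay at or below it. Where the lower group's mean was at or under that level, the difference is given as a bound, written "at least". Ptprc was therefore at least 5.26 higher in HC on the log2 scale, or at least 38.4-fold (adjusted p = 6.79e-08). Cdh5 read 6.36, 5.93 and 5.09 in HC, against 11.84, 11.56 and 11.68 in EC, a difference (HC minus EC) of -5.90 with a standard error of 0.37 (adjusted p = 6.32e-06). Cdh5 in HC stayed above the background level on all 3 arrays.

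HC arrays correlated with each other at Pearson's r of 0.9919 to 0.9935 over the genes, EC arrays at 0.9924 to 0.9934, and an HC with an EC array at 0.9051 to 0.9166. Of the 20405 genes, 5586 (27.4%) differed between HC and EC at an adjusted p under 0.05 by limma: 3024 (14.8%) were higher and 2562 (12.6%) lower in HC. The median difference over all genes was 0.05. Among the genes past the threshold, 1086 were higher and 1097 lower by at least 2-fold, 449 higher and 429 lower by at least 4-fold, and 116 higher and 54 lower by at least 16-fold. These folds are fitted values on arrays normalized to a common scale, and fewer cells of a type in a sort cannot be told apart from less RNA per cell. Over the 429 genes lower by at least 4-fold, HC replicate 1 held the highest of the 3 HC values in 244 genes and HC replicate 3 the lowest in 249. The median deviation from the HC mean was 0.14 for replicate 1 and -0.13 for replicate 3, and the part of remaining endothelial RNA in this was not tested. Over the 449 genes higher by at least 4-fold, the EC arrays were more even: EC replicate 1 was the highest in 161 genes, replicate 2 in 158 and replicate 3 in 130.

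**Figure D1:**
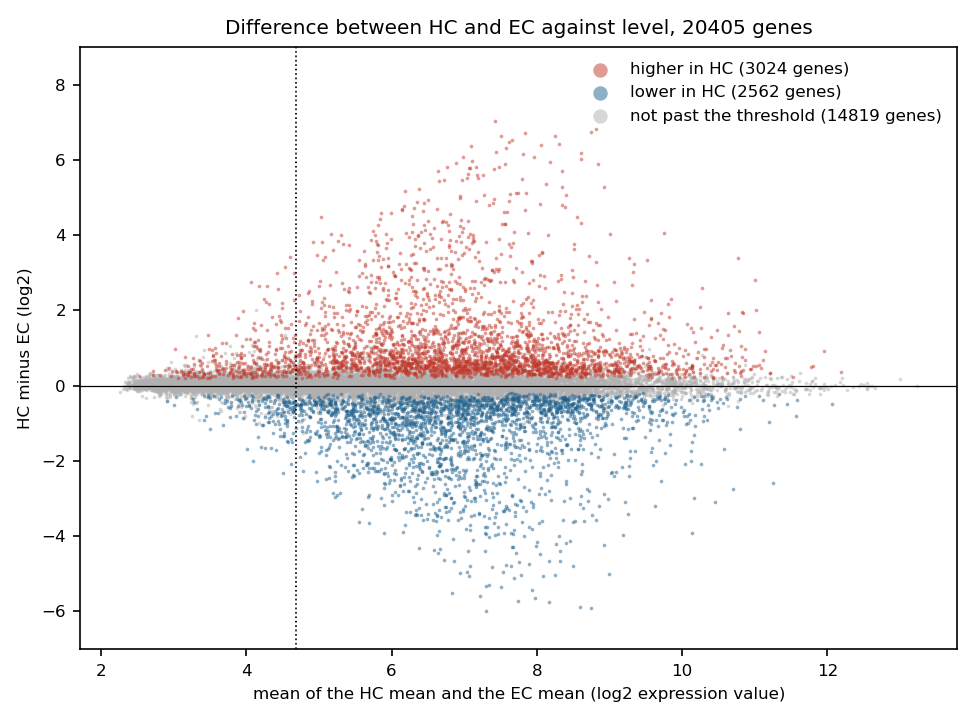
Each point is 1 of 20405 genes. The horizontal axis gives the mean of the HC mean and the EC mean (log2 expression value), the vertical axis HC minus EC (log2), and the dotted line the background level of 4.69. Red points are the 3024 genes higher in HC, blue points the 2562 lower, and grey points did not pass the threshold; the widest differences lie at middle levels, where 1 group is near background.

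Most genes that were detected at all were detected in both populations. The mean was above background in both HC and EC for 12298 genes, in HC alone for 630, in EC alone for 388 and in neither for 7089. Of the genes above background in HC alone, 362 were past the threshold and higher, and of those above background in EC alone, 263 were past it and lower. A 95% confidence interval for the difference that lay wholly within 0.5 of 0 was found for 6053 of the 13316 genes above background in at least 1 group (45.5%). Several of the genes with the highest levels were among them. Actb (cytoplasmic beta-actin) read 13.17, 13.29 and 13.25 in HC, against 13.21, 13.25 and 13.24 in EC. The ribosomal genes Rplp1 (0.16), Rpl26 (-0.07) and Rps10 (0.02) and the calmodulin gene Calm2 (-0.10) gave differences near 0 as well.

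The largest increases in HC came from genes of several myeloid lineages. Cd52, which encodes a small glycosylphosphatidylinositol-anchored leukocyte protein, read 10.80, 11.17 and 10.86 in HC, against 3.83, 4.04 and 3.86 in EC, a difference of at least 6.25 (adjusted p = 5.57e-06). Prg2, the eosinophil granule major basic protein, averaged 11.20 ± 0.22 in HC and 4.48 ± 0.10 in EC (mean ± SD, n = 3 each), a difference of at least 6.51 (adjusted p = 3.68e-05). Values on the 3 HC arrays lay close together, and no EC array reached them. Beyond the first 10 in rank stood genes of the macrophage, namely C1qb (6.16), C1qc (5.89) and Csf1r (6.08), of the neutrophil precursor, namely Mpo (6.18) and Stfa3 (at least 5.29), and of the general leukocyte cytoskeleton and signalling, namely Fyb (at least 5.34), Nckap1l (at least 5.76) and Rac2 (5.71). C1qb and C1qc encode chains of the complement recognition protein, Csf1r the receptor of the macrophage growth factor, Mpo myeloperoxidase, and Fyb an adaptor downstream of immune receptors. Adjusted p for these 8 genes lay between 6.36e-07 and 8.79e-06. The immunoglobulin heavy chain constant gene Ighm, which is also transcribed without rearrangement, was 10.29 ± 0.14 in HC and 4.52 ± 0.54 in EC (mean ± SD, n = 3 each), at least 5.50 higher (adjusted p = 8.89e-06).

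The largest decreases in HC were of endothelial genes with varied functions. Klhl4, a kelch-family gene, read 4.40, 4.47 and 4.03 in HC, against 10.45, 10.15 and 10.26 in EC and was at least 5.60 lower (adjusted p = 1.18e-05). Gng11, a G protein gamma subunit, read 5.65, 5.46 and 5.55 in HC, against 10.57, 10.61 and 10.63 in EC, a difference of -5.05 (adjusted p = 1.57e-06). Flrt2, which encodes a membrane protein that binds Unc5 receptors, read 5.43, 4.91 and 4.57 in HC, against 9.92, 9.56 and 9.87 in EC, a difference of -4.81 (adjusted p = 3.8e-05). The arrays of the groups did not overlap for any of these genes. Tjp1, which encodes the junctional scaffold ZO-1, read 6.52, 6.14 and 5.64 in HC, against 10.95, 10.70 and 11.04 in EC, a difference of -4.80 (adjusted p = 8.51e-06). The membrane protein genes Tmem255a (-5.74) and Cyyr1 (-4.96) were lower as well (adjusted p = 1.95e-05 and 1.86e-06).

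**Figure D2:**
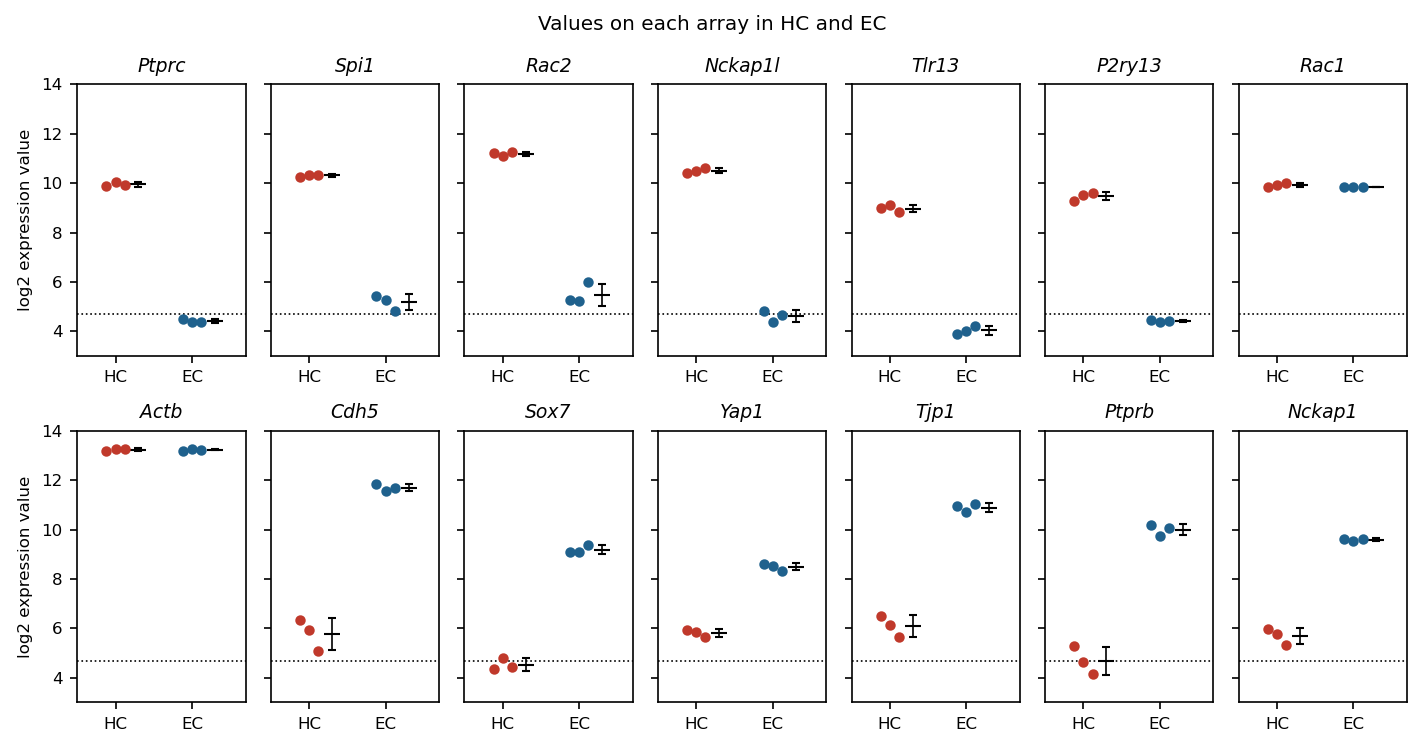
Log2 expression values of 14 genes on the 3 HC arrays (red, left) and the 3 EC arrays (blue, right), with the mean and SD beside them; the dotted line is the background level of 4.69. Rac1 and Actb coincide between the groups, and for the other 12 genes no HC array overlaps an EC array.

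The proximal promoters of the changed genes were set beside the differences, since the gene of the myeloid regulator PU.1 was itself one of those higher in HC. PU.1, encoded by Spi1, is an Ets-family factor required for macrophages and neutrophils, and it prefers a purine-rich GAGGAAGT motif over the CCGGAAGT motif of most Ets factors. Spi1 read 10.24, 10.34 and 10.35 in HC, against 5.45, 5.27 and 4.83 in EC, a difference of 5.13 (adjusted p = 2.43e-07). Promoters from RefSeq on build GRCm38.p6, 250 bases before to 50 bases after the annotated start, were at hand for 15803 of the tested genes, taking the first listed start of each gene. GAGGAAGT on either strand was found in 2.7% of all of them (434), in 5.3% of those of genes higher in HC (129 of 2430) and in 2.2% of those lower (44 of 1992). Among genes changed at least 4-fold it was found in 11.8% of the promoters of higher genes (42 of 355) and in 3.0% of those of lower genes (9 of 302). The general motif CCGGAAGT was found in 7.2% of promoters of higher genes, 3.8% of those of lower genes and 5.5% of all. Among genes changed at least 4-fold it was found in 1.7% of higher and 0.3% of lower. A match is a description, not a site or a cause.

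The promoters shown here belong to the 4 genes with the largest increases whose promoter held GAGGAAGT and to the gene with the largest decrease whose promoter held AACAGGAA, a composite of Fox and Ets letters used by endothelial enhancers. That composite was no more frequent among lower genes: 2.3% of those lower by at least 4-fold held it, beside 5.9% of those higher by that size and 2.4% of all. Capitals mark the motif on either strand, with the start of transcription after base 250. S100a8 (chr3:90668821-90669120, + strand), a chain of the neutrophil calcium-binding protein calprotectin, carries it 172 bases before the start. In Mpo (chr11:87793534-87793833, + strand) it lies 224 bases before the start. In Ctss (chr3:95526536-95526835, + strand), the cathepsin S gene, it begins 2 bases before the start, and in the tetraspanin gene Cd53 (chr3:106790100-106790399, - strand) 6 bases after it. In Emcn (chr3:137340828-137341127, + strand), the gene of the endothelial sialomucin endomucin, the composite lies 173 bases before the start.
S100a8: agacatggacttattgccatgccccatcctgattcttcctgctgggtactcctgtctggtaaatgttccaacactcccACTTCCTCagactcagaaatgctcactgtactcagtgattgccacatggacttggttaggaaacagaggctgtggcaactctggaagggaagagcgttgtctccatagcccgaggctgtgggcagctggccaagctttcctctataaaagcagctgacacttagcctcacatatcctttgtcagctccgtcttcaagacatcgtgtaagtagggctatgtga
Mpo: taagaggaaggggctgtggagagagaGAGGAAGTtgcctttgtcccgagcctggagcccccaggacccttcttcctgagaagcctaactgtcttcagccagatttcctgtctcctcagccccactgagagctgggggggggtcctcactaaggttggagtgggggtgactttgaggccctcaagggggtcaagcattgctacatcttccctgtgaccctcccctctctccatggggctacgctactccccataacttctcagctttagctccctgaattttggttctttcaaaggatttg
Ctss: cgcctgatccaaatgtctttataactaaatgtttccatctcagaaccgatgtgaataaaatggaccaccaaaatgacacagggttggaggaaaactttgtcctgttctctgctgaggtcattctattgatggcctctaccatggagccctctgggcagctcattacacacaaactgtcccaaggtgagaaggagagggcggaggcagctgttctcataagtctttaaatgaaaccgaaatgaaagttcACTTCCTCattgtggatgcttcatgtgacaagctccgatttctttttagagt
Cd53: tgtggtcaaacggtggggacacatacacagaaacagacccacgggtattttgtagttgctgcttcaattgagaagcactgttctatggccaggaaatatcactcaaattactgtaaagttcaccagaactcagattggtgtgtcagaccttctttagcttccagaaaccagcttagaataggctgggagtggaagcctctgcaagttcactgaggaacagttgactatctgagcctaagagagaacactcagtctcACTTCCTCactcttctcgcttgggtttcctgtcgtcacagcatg
Emcn: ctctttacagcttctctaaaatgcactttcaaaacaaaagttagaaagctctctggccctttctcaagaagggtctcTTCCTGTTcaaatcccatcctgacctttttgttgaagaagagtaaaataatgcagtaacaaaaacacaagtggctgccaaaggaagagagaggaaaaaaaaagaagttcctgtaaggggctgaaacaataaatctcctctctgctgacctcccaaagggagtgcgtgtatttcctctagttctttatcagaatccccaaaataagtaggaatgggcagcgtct
S100a8 read 12.13, 12.29 and 11.94 in HC, against 7.05, 4.32 and 4.78 in EC. Its HC arrays agreed closely while the EC arrays spread widely, and the difference was 6.73 (adjusted p = 5.27e-05). Ctss was at least 5.85 higher (adjusted p = 1.26e-05) and Cd53 at least 6.23 higher (adjusted p = 4.27e-06). Emcn averaged 5.66 ± 1.08 in HC and 11.54 ± 0.14 in EC (mean ± SD, n = 3 each), a difference of -5.88 (adjusted p = 6.92e-05).

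The other motifs searched gave the following shares. The interferon response half-sites AANNGAAA were found in 31.0% of promoters of genes higher by at least 4-fold (110 of 355), in 16.9% of those lower by that size (51 of 302) and in 21.9% of all. The AP-1 motif TGANTCA gave 10.1%, 4.0% and 7.0%, the RUNX motif TGTGGTTT 3.7%, 1.3% and 1.6%, the composite AACAGGAA 5.9%, 2.3% and 2.4%, and the SOX motif AACAATGG 0.3%, 1.7% and 0.8% in the same order. AGATAAGA (GATA), TTGCGCAA (C/EBP), CCACACCC (KLF), CAGATGG (an E-box) and the core promoter box TATAAA were searched as well; the core promoter box was in 13.2% of the promoters of higher, 9.9% of lower and 12.4% of all genes. Base composition differed between these groups, and its part in the shares was not tested. The median GC content was 53.7% for genes higher by at least 4-fold, 63.3% for those lower by that size and 57.3% for all. No motif search here distinguishes overlapping letters: AACAGGAA and the Ets motifs can share the letters GGAA.

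**Figure D3:**
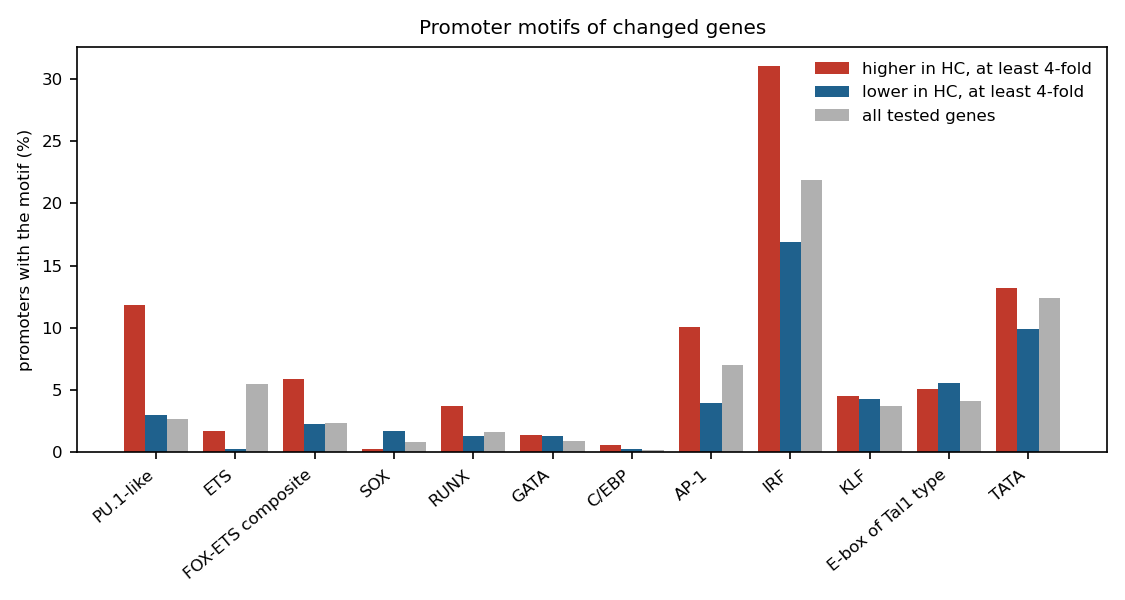
Share of promoters (percent, vertical axis) that hold each of 12 motifs, for genes higher in HC by at least 4-fold (red), lower by at least 4-fold (blue) and all tested genes (grey). The PU.1-like motif stands at 11.8%, 3.0% and 2.7% and the interferon motif at 31.0%, 16.9% and 21.9%.

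Families of leukocyte surface receptors held more higher than lower members in HC, among them sensors of microbes and of antibody. Of 12 Toll-like receptors measured, 8 were higher and 2 lower, beside 14.8% and 12.6% of all genes, with a median difference of 1.74 beside 0.05 over all genes. Tlr13, an endosomal sensor of bacterial ribosomal RNA, read 8.99, 9.11 and 8.82 in HC, against 3.88, 3.99 and 4.22 in EC and was at least 4.28 higher (adjusted p = 0.000392). The lipopeptide receptor genes Tlr1 (at least 3.80) and Tlr2 (3.02) and the nucleic acid sensor genes Tlr7 (at least 3.24) and Tlr9 (2.57) were higher too. The lower members were Tlr3, the sensor of double-stranded RNA, and Tlr12 (-0.42), whose call was lost without HC replicate 1 or 3 or EC replicate 1 or 3. Tlr3 read 6.05, 5.91 and 6.22 in HC, against 6.82, 7.09 and 6.66 in EC, a difference of -0.80 (adjusted p = 0.00157). Among Fc receptors and the adaptors that carry immunoreceptor tyrosine-based activation motifs, 13 of 16 were higher and 0 lower. Fcgr3 (at least 5.67), Fcer1g (5.29) and Tyrobp (6.03) form receptors and signalling chains of macrophages and mast cells. Of 31 leukocyte immunoglobulin-like and paired receptors, 24 were higher and 0 lower, with a median of 1.33; Cd84 (at least 3.85), Pilra (at least 3.06) and Cd300c2 (4.001) led or lay near the top. Of 9 Siglecs, which bind sialic acid, 6 were higher, among them Cd33 (4.85) and Siglech (at least 2.38). C-type lectins were divided: 15 of 46 were higher, led by the mannose receptor Mrc1 (5.96), and 4 were lower, namely Clec14a (at least 4.75 lower), Clec1b (-3.53), Clec9a (at least 0.45 lower) and Clec1a (at least 0.27 lower). The medians were 0.15 for the C-type lectins and 0.18 for the Ms4a genes. Of the 20 Ms4a genes, 10 were higher and 0 lower, but near-identical members can share probe sequence, so single members are uncertain.

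Receptors for soluble signals split by class. Of 14 P2Y, adenosine and formyl peptide receptors, 7 were higher and 0 lower. P2ry13 read 9.29, 9.53 and 9.59 in HC, against 4.47, 4.38 and 4.43 in EC and was at least 4.78 higher (adjusted p = 3.18e-07), and P2ry6 (4.84) and P2ry12 (at least 3.99) followed; all respond to nucleotides released by damaged cells. Of 36 cytokine receptors of the hematopoietin and interferon families, 20 were higher, with a median of 0.99. Csf2rb (at least 4.07) is the shared beta chain for interleukin-3, interleukin-5 and GM-CSF, and Il10ra (at least 3.76) and Il6ra (3.42) are ligand-binding chains. The 5 that were lower included the receptors of leptin, growth hormone and leukemia inhibitory factor, Lepr (at least 0.57 lower), Ghr (-1.41) and Lifr (-1.23) (adjusted p = 9.96e-06, 0.00197 and 0.00368), and without HC replicate 1 the lower members numbered 3. Receptor tyrosine kinases leaned to EC, with 5 higher and 10 lower of 38. Beside Csf1r, the higher members were the phagocytic receptor gene Mertk (3.07), the progenitor receptor gene Flt3 (1.84), the hepatocyte growth factor receptor gene Met (1.04) and Axl (0.89), whose call was lost on leaving out any 1 of the 6 arrays. Of 22 chemokine receptors, 7 were higher, led by Cx3cr1 (5.29), and 3 were lower, a lower share of 13.6% beside 12.6% of all genes. The 3 were of the atypical, scavenging type, and Ackr3 (-1.62) was the strongest (adjusted p = 0.00114). Ackr2 (at least 0.09 lower) and Ackr1 (at least 0.17 lower) lay near background in both groups. Ackr1 lost its call without HC replicate 2 or 3 or EC replicate 1 or 3. Cx3cl1, which encodes the ligand of the receptor Cx3cr1, was lower in HC, with 5.79 ± 0.36 in HC and 8.07 ± 0.28 in EC (mean ± SD, n = 3 each; adjusted p = 4.42e-05).

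**Figure D4:**
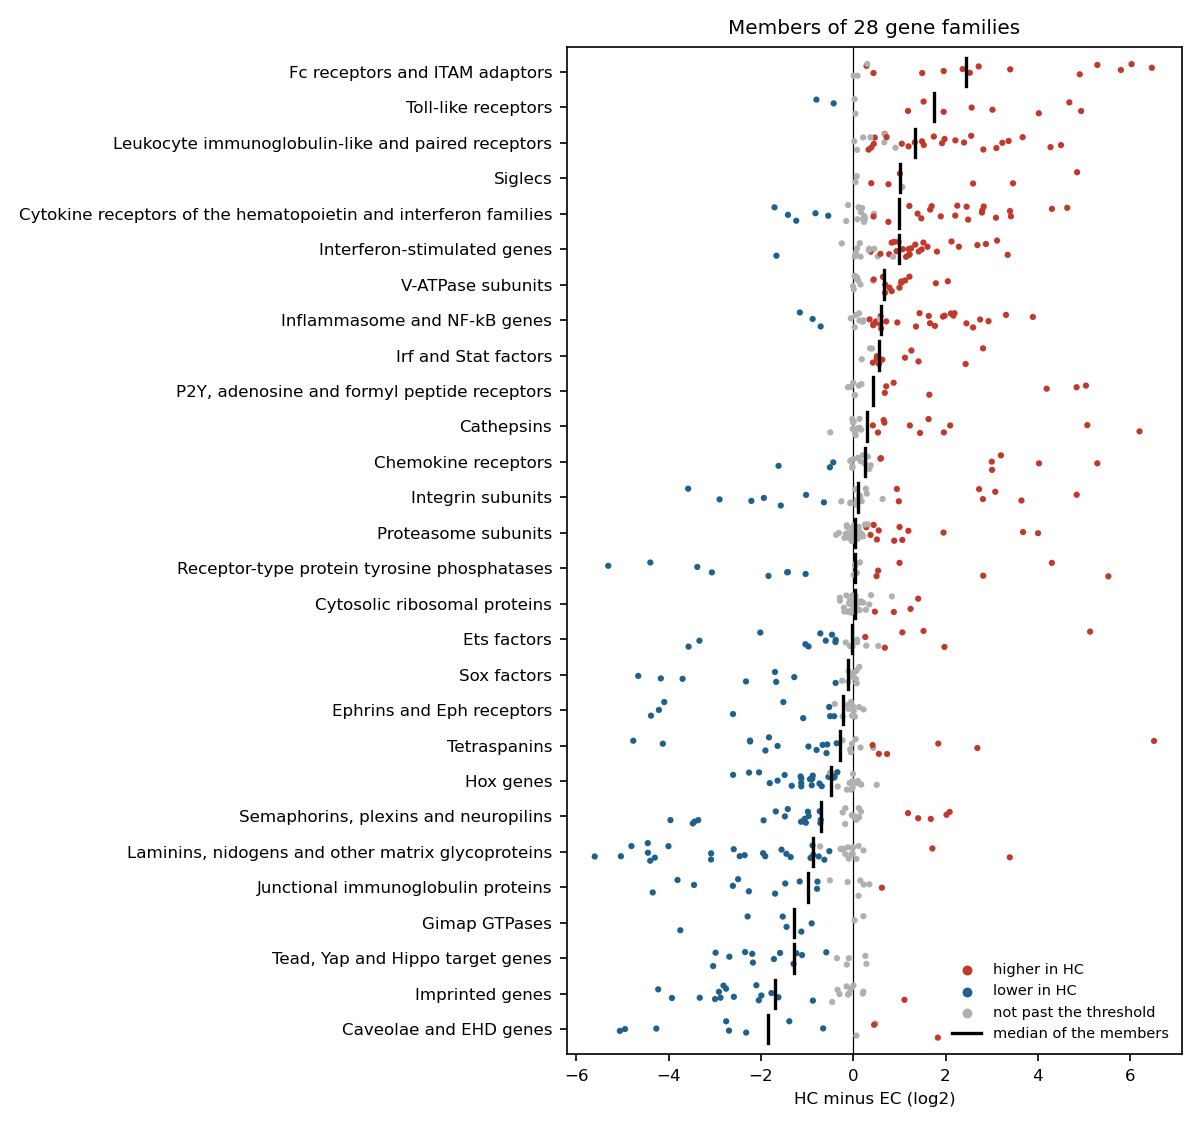
Differences of the members of 28 gene families (horizontal axis, HC minus EC, log2), 1 family per row, ordered by the median of its members (black bar). Red points were higher in HC, blue points lower and grey points not past the threshold; the rows run from Fc receptors and their adaptors at a median of 2.45 to caveolae and EHD genes at -1.85.

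Adhesion families held members on both sides. Integrins, which pair an alpha with a beta chain to hold matrix or other cells, had 7 higher and 7 lower of 26. The leukocyte chains Itgam (at least 4.17), Itgb2 (3.65) and Itga4 (3.08) and the vitronectin receptor chain Itgb5 (2.81) were higher, and the collagen- and laminin-binding chains Itga2 (-3.58) and Itga3 (-2.21) and the fibronectin receptor chain Itga5 (-1.94) lower. Itgb2 read 8.31, 8.41 and 8.33 in HC, against 4.65, 4.68 and 4.78 in EC (adjusted p = 6.36e-07), and Itga2 read 4.92, 5.29 and 5.15 in HC, against 8.60, 8.65 and 8.84 in EC (adjusted p = 2.94e-06). The groups did not overlap for either chain. Tetraspanins had 6 higher, with Cd37 (2.69) behind Cd53, and 13 lower of 26, led by Tspan18 (-4.76) and Tspan6 (-4.12). Of 18 junctional immunoglobulin proteins, 11 were lower, with Esam (at least 4.07 lower), Mcam (-3.81) and Pecam1 (-3.45) in front, and 1 was higher, Nectin4 (at least 0.52). Cadherins beyond Cdh5 included the neural cadherin gene Cdh2 (-2.32), lower in HC, and Cdh17 (at least 1.04), the single higher member of 23. The non-clustered protocadherins had 5 lower and 0 higher of 12, with Pcdh17 (-3.51) and Pcdh12 (-2.90) at the top. Claudins, the sealing proteins of tight junctions, had 3 lower of 23, a share near the 12.6% of all genes, the 3 being Cldn5 (-5.42), Cldn12 (-1.46) and Cldn11 (-1.08).

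Guidance families were lower in HC on balance. Of 21 ephrins and Eph receptors, 9 were lower and 0 higher. The arterial ligand gene Efnb2 (-4.21) and its venous receptor gene Ephb4 (-4.09) were both lower (adjusted p = 0.000116 and 7.07e-05). Semaphorins, plexins and neuropilins had 16 lower, led by Plxnd1 (-3.96) and Nrp2 (-3.47), and 5 higher of 31, which included Sema4a (at least 2.003), Sema4b (2.02) and Plxnb2 (1.68). Of 16 Slit, Robo, netrin and Unc5 genes, 5 were lower, among them Robo4 (-3.80) and Unc5b (-2.67). Adhesion G protein-coupled receptors were divided, with 4 higher, led by Adgre1 (at least 5.27), a macrophage surface antigen, and 8 lower, led by Adgrf5 (at least 4.89 lower), of 25.

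Many signalling and cytoskeletal families hold a gene described as leukocyte-type beside a relative of broad or endothelial expression. A list of 59 such pairs was written from general knowledge with earlier results of these data known, so its counts are a description and not independent evidence, and 54 had both members measured. The leukocyte-type member was higher in HC in 51 pairs, and its counterpart was lower in 34, higher in 8 and not past the threshold in 12, beside 14.8% of all genes higher and 12.6% lower. In 31 pairs the members moved in opposite directions, called an exchange here. An exchange does not mean that a member was replaced. Slc2a1 still averaged 9.18 in HC, above Slc2a3 at 7.66, and Lcp1 averaged 9.44 in EC, above Pls3 at 8.53. In other pairs the levels crossed, as for Nckap1l and Nckap1. For 8 of the 12 counterparts that did not pass, the 95% interval lay within 0.5 of 0. The median difference was 2.47 for leukocyte-type members and -0.75 for counterparts. In 53 of the 54 pairs the signed difference (HC minus EC) was greater for the leukocyte-type member, the exception being the V-ATPase pair Atp6v0d2 (0.69) and Atp6v0d1 (1.12). Atp6v0d2, counted among the 51 as higher, averaged 3.92 in HC and 3.23 in EC, under background in both groups.

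Nckap1l and Nckap1 encode alternative subunits of the WAVE complex, which starts branched actin. Nckap1l read 10.41, 10.48 and 10.61 in HC, against 4.84, 4.38 and 4.64 in EC, at least 5.76 higher (adjusted p = 6.36e-07). Nckap1 read 5.97, 5.79 and 5.33 in HC, against 9.64, 9.53 and 9.63 in EC, a difference of -3.90 (adjusted p = 2.77e-05). The pair thus exchanged, with no overlap of arrays in either gene. The small GTPase Rac2 read 11.22, 11.10 and 11.27 in HC, against 5.25, 5.21 and 6.003 in EC (adjusted p = 2.98e-06), while Rac1, its ubiquitous relative, read 9.86, 9.92 and 10.02 in HC, against 9.86, 9.86 and 9.86 in EC, a difference of 0.07 whose 95% interval was -0.07 to 0.21. The kindlins, which activate integrins from inside the cell, exchanged, with Fermt3 (3.32) and Fermt2 (-3.93). The parvins that bind the same adhesion sites did so too, with Parvg (3.98) and Parvb (-2.99). So did the class I myosins Myo1f (5.13) and Myo1e (at least 2.49 lower), the cortactin pair Hcls1 (2.84) and Cttn (-2.13), the fimbrin pair Lcp1 (1.43) and Pls3 (-2.53), and the Rac exchange factors Dock2 (at least 3.84) and Dock1 (-1.55). Adjusted p lay between 6.17e-07 and 4.52e-05 for the other 10 genes of these pairs and was, for Lcp1 and Pls3, 6.17e-06 and 9.53e-05.

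Outside the cytoskeleton, the catalytic subunits of superoxide-producing oxidases exchanged: Cybb (at least 5.16), the phagocyte enzyme, and Nox4 (at least 1.54 lower) (adjusted p = 1.23e-05 and 1.42e-05). Phospholipase C gamma did so with Plcg2 (2.01) and Plcg1 (-2.49), Tec kinases with Btk (at least 3.54) and Bmx (at least 0.58 lower), G alpha q-class subunits with Gna15 (2.41) and Gna11 (-1.97), and glucose transporters with Slc2a3 (2.28) and Slc2a1 (-1.30). The receptor phosphatase pair had the widest fitted gap of the 54, with Ptprc at least 5.26 higher and Ptprb (at least 5.11 lower) (VE-PTP, which binds VE-cadherin). Ptprc encodes CD45, on which the cells were sorted, so the width of that gap is not a separate result. Other counterparts did not pass the threshold while the leukocyte gene was higher: the phosphatase Ptpn11 (-0.01) beside Ptpn6 (3.54), the lipid phosphatase Inppl1 (0.03) beside Inpp5d (1.67), and the transporter chaperone Bsg (0.03) beside Emb (3.75). The 3 leukocyte-type members that did not pass the threshold were Gngt2 (-0.19), Rasgrp2 (-0.08) and the cyclin Ccnd3 (-0.11), whose counterparts Gng11 (-5.05), Rasgrp3 (-2.29) and Ccnd1 (-0.87) were lower.

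**Figure D5:**
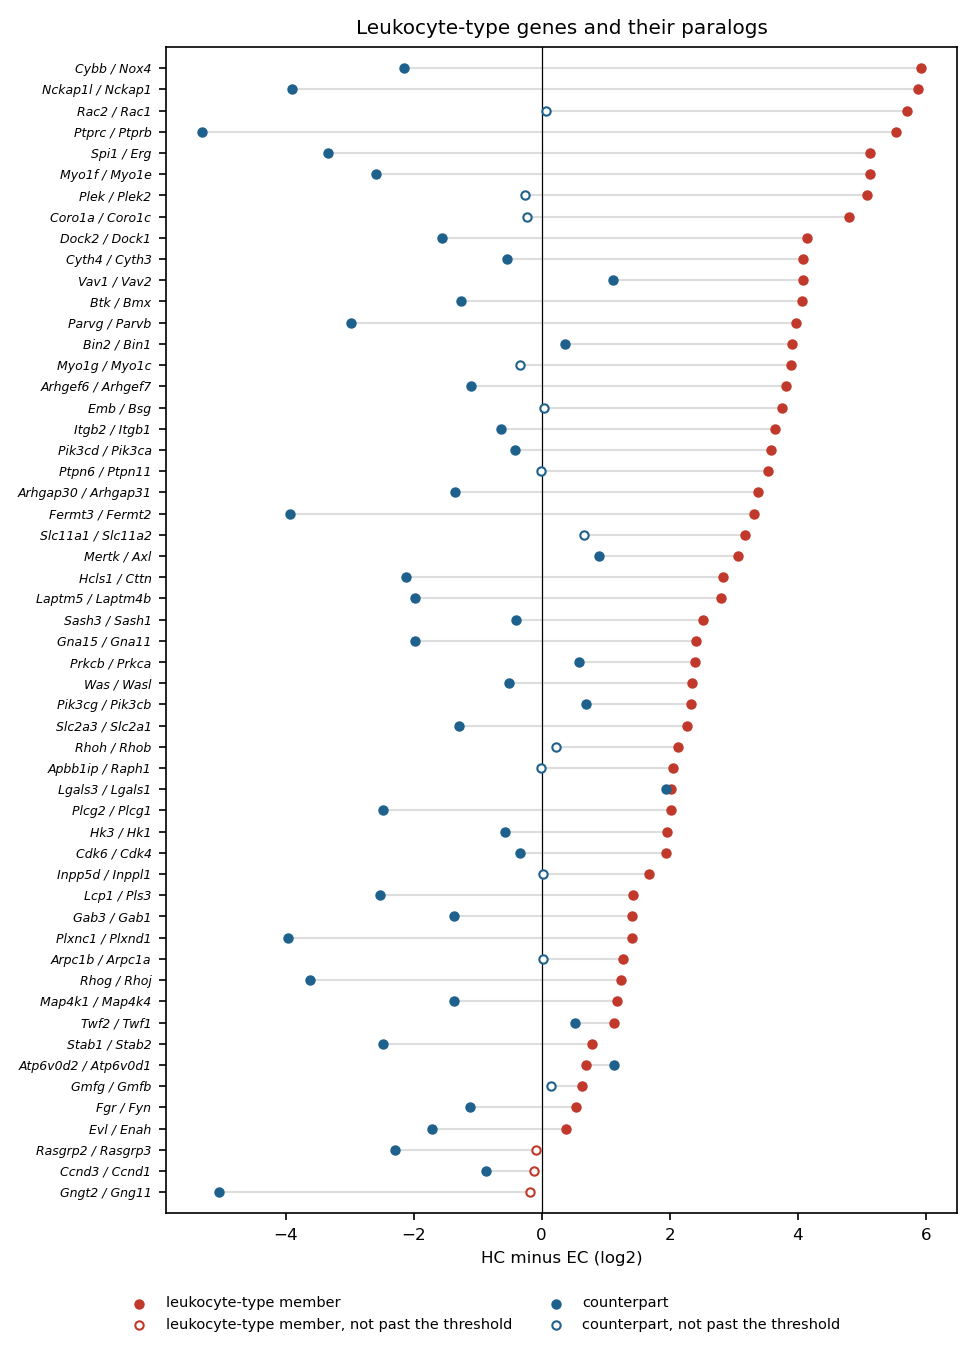
Differences (horizontal axis, HC minus EC, log2) of the 54 measured pairs, 1 pair per row, with the leukocyte-type member in red and its counterpart in blue; open circles did not pass the threshold. In 31 rows the red point lies right of 0 and the blue point left of it, both past the threshold.

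Transcription factor families were divided by member. Ets factors had 6 higher, with Elf1 (1.52) and Etv1 (1.07) beside Spi1, and 10 lower of 25, with Ets1 (-3.57), Erg (-3.33) and Elk3 (-2.01) in front. Ets1, a factor of angiogenic endothelium, read 6.74, 6.26 and 6.72 in HC, against 10.10, 10.07 and 10.24 in EC (adjusted p = 2.57e-05). Of 19 Sox factors, 8 were lower and 0 higher, and the F-group members Sox7 (at least 4.46 lower), Sox18 (-4.17) and Sox17 (at least 3.34 lower), regulators of vessel identity, were the furthest. Sox7 read 4.35, 4.81 and 4.44 in HC, against 9.10, 9.08 and 9.39 in EC (adjusted p = 1.03e-05). Irf and Stat factors, which act downstream of interferons and cytokines, had 11 higher and 0 lower of 14, among them Irf8 (2.81), Irf5 (2.44) and Stat6 (1.26). Cebp, Maf and Mitf-Tfe factors had 11 higher and 2 lower, namely Nfe2l1 (-0.60) and Bach2 (at least 0.31 lower) (1 on leaving out any HC array or EC replicate 1 or 2) of 21, led by Maf (2.84), Cebpa (2.43) and Tfec (2.39). The Ikaros gene Ikzf1 (3.95) and the Bcl6 relative Bcl6b (-3.70) stood at opposite ends of the Ikaros, Bcl11 and Gfi list, in which 7 were higher and 3 lower of 17.

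Position and organ-size factors were lower in HC. Of 38 Hox genes, 22 were lower and 0 higher, with a median of -0.49, and Hoxd8 (-2.60), Hoxa5 (at least 2.12 lower) and Hoxb5 (-2.04) were the furthest. Hoxa9, which is also used by blood progenitors, read 6.12, 5.83 and 5.88 in HC, against 7.58, 7.58 and 7.58 in EC, a difference of -1.64 (adjusted p = 3e-05). Of 17 genes of the Yap and Tead pathway, which reads cell shape and contact, 12 were lower and 0 higher. Yap1 read 5.94, 5.87 and 5.64 in HC, against 8.62, 8.53 and 8.35 in EC (adjusted p = 6.04e-06), and its partners Tead2 (-3.03) and Tead4 (-2.34) were lower as well. Forkhead factors had 3 higher and 9 lower of 43, with Foxc2 (-3.14), Foxc1 (-2.50) and Foxo1 (-1.88) the furthest; the higher ones, Foxn2 (0.60), Foxo3 (0.37) and Foxm1 (0.31), numbered 0 or 1 without HC replicate 2 or 3 or EC replicate 1 or 3. The Ldb1 relative Ldb2 (-4.66), the orphan nuclear receptor Nr2f2 (-2.88) of venous endothelium and the retinoic acid receptor Rarb (-2.43) were lower (adjusted p = 2.21e-05, 0.000324 and 0.000113).

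Organelle and defence genes of phagocytes were higher in HC. Of 22 subunits of the V-ATPase, the proton pump of lysosomes, 13 were higher and 0 lower, with a median of 0.67; Atp6v0b (2.05) and Atp6ap2 (1.79) were the furthest. Cathepsins, the proteases of that compartment, had 11 higher and 0 lower of 22. Beside Ctss stood Ctsc (5.07), which activates granule serine proteases, and Ctsb (2.10). The oxidase subunits Ncf1 (3.92), Ncf4 (at least 3.35) and Cyba (2.69) were higher with Cybb. Inflammasome and NF-kB genes had 26 higher and 3 lower of 38, with Casp1 (at least 3.25), Pycard (3.31) and Nlrp3 (at least 2.47) among the higher and Nod1 (-1.16), Nlrc3 (-0.88) and Card10 (-0.70) the lower. Of 37 interferon-stimulated genes, 25 were higher, with a median of 0.98, and the single lower member was Rsad2 (-1.66), which encodes the antiviral enzyme viperin. Rsad2 read 5.37, 5.26 and 5.41 in HC, against 7.13, 6.70 and 7.21 in EC (adjusted p = 1.5e-05). Of 36 chemokines, 17 were higher, led by Ccl3 (6.82), Ccl12 (at least 5.27), Cxcl2 (at least 5.10) and Ccl2 (5.48), and 2 lower, Cx3cl1 and Ccl20 (-0.26), or 1 without HC replicate 1 or 2, EC replicate 1 or 3 or HSPC replicate 3. Ccl20 was under background in both groups.

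The proteasome list moved in a few members. Of 47 subunits, 12 were higher and 0 lower, and the median was 0.04, beside 0.05 over all genes; median centring gave 2 lower subunits and repeated quantile normalization 3. The subunits that replace their constitutive relatives in the immunoproteasome were the furthest: Psmb9 read 10.19, 10.21 and 10.08 in HC, against 6.25, 6.18 and 6.04 in EC, Psmb8 differed by 3.68 and Psmb10 by 1.96 (adjusted p = 4.83e-06, 3.71e-06 and 0.000126). Cytosolic ribosomal proteins had 4 higher of 42, a share below the 14.8% of all genes, with a median of 0.04. The largest were Rpl10a (1.41) and Rpl39l (1.24), the latter under background in both groups. DNA replication and mitosis genes had 14 higher and 0 lower of 45, all by less than 2-fold, with Aurkb (0.95) the furthest. Of 85 oxidative phosphorylation subunits, 14 were higher, a share near that of all genes, but 9 under median centring or repeated quantile normalization and 6 to 9 without HC replicate 1, 2 or 3 or EC replicate 1 or 3. They included 2 changed by at least 2-fold, Cox7a1 (2.21) and Cox4i2 (1.02).

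Metabolic families held members on both sides. Glycolysis and glucose or lactate transport genes had 11 higher and 3 lower of 23. The hexokinase genes Hk2 (2.28) and Hk3 (1.95) were higher and Hk1 (-0.57), above background in both groups, was lower. Eicosanoid genes, which make prostaglandins and leukotrienes, had 15 higher and 4 lower of 28. The prostaglandin D2 synthase gene Hpgds (5.08) and the leukotriene gene Alox5ap (3.62) were higher, and the prostacyclin synthase gene Ptgis (-1.35) was lower (adjusted p = 0.000122). Lipid uptake and lipoprotein genes had 16 higher and 5 lower of 31; Apoe (3.40), Lpl (4.29) and the scavenger receptor gene Msr1 (at least 3.87) were higher, while Fabp4 (at least 3.41 lower) and Gpihbp1 (-1.44), the capillary anchor of lipoprotein lipase, were lower. Without HC replicate 1 or 3 the lower members numbered 3. Cholesterol synthesis was the metabolic list with more lower than higher members, 8 against 2 of 19. Hmgcs1 (-1.11) and Sqle (-1.09) were among the lower. Iron and haem handling had 12 higher and 1 lower of 27, with the iron exporter gene Slc40a1 (2.78) and the phagosomal transporter gene Slc11a1 (3.18) higher. Of 349 solute carriers, 71 were higher and 40 lower. Slc7a8 (at least 4.21) and Slc15a3 (4.18) were at the top, and Slco3a1 (-2.97) and Slco2a1 (-2.63), which carry prostaglandins, near the bottom.

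Matrix and vessel-wall lists held more lower than higher members. Laminins, nidogens and other matrix glycoproteins had 24 lower and 2 higher of 41. Mmrn2 (at least 5.16 lower), Lama4 (-4.80) and the perlecan gene Hspg2 (-4.40) were lower, and Emilin2 (3.39) and Thbs1 (1.72) were the higher ones. Emilin2 read 8.24, 8.25 and 8.47 in HC, against 4.66, 5.14 and 4.98 in EC (adjusted p = 1.56e-05). Collagens had 6 lower and 0 higher of 44, a lower share of 13.6% that is near the 12.6% of all genes, with a median of 0.01; the basement membrane chains Col4a1 (-3.32), Col4a2 (-2.997) and Col18a1 (-3.32) were among the 6. Matrix proteases and their inhibitors had 16 lower, such as Timp3 (-4.19), Mmp2 (-3.26) and Mmp14 (-3.07), and 10 higher, such as Mmp8 (at least 0.16) and Mmp19 (1.56), of 82. The lower share was 19.5% beside 12.6% of all genes and the higher share 12.2% beside 14.8%, with a median of 0.01. Vasoactive and coagulation genes had 19 lower, among them Aplnr (-5.01), Vwf (-3.98) and Edn1 (-3.56), and 5 higher of 33. The higher members included the clotting factor gene F13a1 (at least 5.28) and Ramp1 (2.40), and numbered 3 without HC replicate 1 or 3 or EC replicate 2. Ramp1 and Ramp2 pair with the same receptor, encoded by Calcrl, to set its ligand, and they exchanged: Ramp1 read 7.99, 7.88 and 7.52 in HC, against 5.31, 5.32 and 5.56 in EC (difference 2.40, adjusted p = 2.98e-06), and Ramp2 read 5.77, 5.59 and 4.43 in HC, against 10.38, 10.24 and 10.27 in EC (difference -5.03, adjusted p = 1.97e-05). Calcrl itself differed by -3.02 (adjusted p = 6.45e-06). Caveolae and EHD genes had 8 lower, led by Ehd2 (at least 4.83 lower) and Cav1 (at least 4.68 lower), and 2 higher of 12, namely Ehd4 (1.83) and Pacsin2 (0.45), which lost its call without HC replicate 2 or 3 or EC replicate 1 or 2.

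Imprinted genes, which are expressed from 1 parental copy and often promote or restrain fetal growth, had 15 lower and 1 higher of 26, with a median of -1.70. Plagl1 (-4.22), Mest (-3.93), Igf2r (-3.32) and Peg10 (-2.99) were the furthest, and the higher one was Impact (1.11). Mest read 8.67, 8.64 and 7.20 in HC, against 12.09, 12.14 and 12.05 in EC (adjusted p = 0.000285). Zinc finger genes named Zfp had 31 higher (8.9%) and 61 lower (17.5%) of 349, beside 14.8% and 12.6% of all genes. Their median was -0.06, and the furthest lower were Zfp521 (-3.53) and Zfp423 (-2.85). Both encode large multi-zinc-finger cofactors.

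Changed genes also lay beside each other. On the RefSeq gene order of GRCm38.p6, runs of at least 4 consecutive tested genes past the threshold in 1 direction numbered 53, with 35 runs higher and 18 lower in HC and 237 genes in all. With 14.8% of all genes higher and 12.6% lower, some such runs can arise in any gene order, and how many was not tested. After repeated quantile normalization 24 runs were higher and 24 lower. In settings chosen for this count after the data were seen, the number of runs was 31 to 45 on leaving out single HC or EC arrays, 42 with the replicate block, 20 at an adjusted p under 0.01 and 5 with a 2-fold minimum, and 106 when genes at background in both groups were left out, which brings other genes together. The longest held 8 genes and was lower, in the gamma protocadherin cluster, where Pcdhga10 (at least 2.04 lower) and Pcdhgb7 (at least 1.56 lower) were the furthest; its members share exons and probe sequence, so they are not separate measurements. Without HC replicate 1, 4 of the 8 were left in a row. The run of 7 on chromosome 17 was higher and holds the class II assembly gene H2-DMa (1.74), the peptide transporter genes Tap1 (1.17) and Tap2 (0.82) and the immunoproteasome genes Psmb8 and Psmb9. It was cut to 5 genes without HC replicate 2 or 3 or EC replicate 1 or 2, where H2-DMb2 (at least 0.49) lost its call. On chromosome 3, Med12l (0.94), Gpr171 (at least 3.09), P2ry14 (1.65), P2ry13 and P2ry12 were higher in a row of 6 tested genes, but no row of 4 was left there with the replicate block or without HC replicate 1, 2 or 3 or EC replicate 2 or 3. On chromosome 17, Aif1 (at least 5.40), Lst1 (4.74), Ltb (0.62) and Tnf (3.55) were higher in a row, which Ltb broke by losing its call under median centring and without HC replicate 1, 2 or 3, EC replicate 1 or 3 or HSPC replicate 1. Runs that were lower held Hox genes on chromosomes 2 (no row of 4 without HC replicate 2 or 3), 6 and 11, the Gimap genes Gimap4 (-3.75) and Gimap6 (-2.29) on chromosome 6, and Armcx4 (-3.50) and Armcx1 (-2.10) on chromosome X. Gimap genes are best known from lymphocytes; 6 of 8 were lower in HC and 0 higher. Genes of 1 family lie together, so a run is partly a family counted again.

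Markers of other cells in the region were set beside these differences. Over all genes, 14.8% were higher and 12.6% lower. Higher shares were 21.1% for erythroid, 20.0% for megakaryocyte and platelet and 13.6% for lymphoid markers. Lower shares were 20.0% for neural, 20.0% for megakaryocyte and platelet, 13.6% for lymphoid and 8.7% for mural and mesenchymal markers. No member of the epithelial and mesonephric list of 15 passed the threshold by limma, with 1 at an unadjusted p under 0.05 and 1 past the adjusted threshold with the replicate block or without HC replicate 2, and its mean level per array was 4.79 to 4.89 in HC and 4.78 to 4.85 in EC. Of 23 mural and mesenchymal markers, 2 were lower and 0 higher, with list means of 5.24 to 5.55 in HC and 5.35 to 5.65 in EC; Abcc9 (-3.22) was the only one changed by over 2-fold, and Pdgfrb (0.36) and Acta2 (-0.49) did not pass. Neural markers had 3 lower of 15, with list means of 4.95 to 5.05 in HC and 5.42 to 5.63 in EC. Gap43 read 6.05, 5.85 and 5.42 in HC, against 9.64, 9.56 and 9.61 in EC (adjusted p = 0.000635). Stmn2 read 5.16, 5.12 and 4.97 in HC, against 8.60, 8.47 and 8.21 in EC (adjusted p = 4.24e-05), while Sox10 (0.07), Th (0.10) and Phox2a (0.01) did not differ past the threshold. Erythroid markers had 4 higher of 19 (2 without HC replicate 1 or 2 or EC replicate 3), with list means of 6.12 to 6.60 in HC and 5.72 to 6.70 in EC. The embryonic globin gene Hbb-y read 12.19, 12.30 and 11.20 in HC, against 12.49, 12.31 and 11.22 in EC, and Hba-x read 12.12, 12.25 and 11.18 in HC, against 12.42, 12.04 and 10.73 in EC: both sorts carried globin RNA, and replicate 3 was the lowest in each. Lymphoid markers had 3 higher and 3 lower of 22, which is near the shares of all genes. Of these, Cd79b (2.72) and Il7r (at least 0.34) were higher, Ebf1 (at least 2.66 lower) was lower, and Cd3e (0.11), Pax5 (0.22) and Rag1 (0.10) did not pass. Megakaryocyte and platelet markers had 3 higher, 3 lower and 9 not past the threshold of 15. Pf4 (3.39), P2rx1 (2.16) and Nfe2 (1.93) were higher. Mmrn1 (at least 4.10 lower) was lower, as were Vwf (-3.98) and Clec1b (-3.53), which are both also made by endothelium. Itga2b (0.64), Gp9 (0.44), Gp1bb (0.28), Gp5 (-0.01), Tubb1 (-0.15) and Ppbp (-0.40) were among those that did not pass. Pf4 read 10.93, 11.07 and 10.91 in HC, against 7.44, 9.20 and 6.10 in EC, so that its EC arrays spread widely. The part of these other cells in the results was not tested.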

How the data were processed

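The deposited table held log2 expression values of 9 arrays; the submitters' processing notes list RMA and Partek, without versions. RMA corrects background, quantile-normalizes and summarises probes by median polish. Per the labels' protocols, RNA was amplified with the Ovation Pico V2 kit and hybridised to the Mouse Gene 1.0 ST and 2.0 ST arrays, without saying which sample went on which. RMA compresses differences of weak genes and hides changes in total RNA per cell, and 2 or more arrays held the same value in 46.6% of probe sets. Of 21115 probe sets, 710 had no symbol and were left out, and the other 20405 matched RefSeq by symbol. HC and EC were compared in R 4.3.3 by lmFit and eBayes of limma 3.58.1 (two-sided, group means over all 9 arrays, 6 residual and 2.75 prior degrees of freedom). Adjusted p is Benjamini-Hochberg over 20405 genes, with a threshold of 0.05; an exact permutation test of 3 against 3 cannot go below 0.1. The fit was tested on simulated data. A bound sets the lower group's arrays at 4.69 or their own value, whichever is higher. The members, lists, pairs and motifs were chosen with earlier results of these data known, and list errors were corrected after values were seen. Genes were named by rule: the sorted pair, the furthest 4 members of a list each way whose arrays do not overlap, members in a minority direction, pairs, runs, markers, the 40 largest changes each way and the highest or steadiest genes. The alternatives were a filter on low values, the 6 arrays alone, 2 scalings, another variance model, a replicate block, each array left out, a stricter threshold and a 2-fold minimum. Precision is limited by the number of arrays.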

Additional observations from a re-analysis of the deposited data

How the results depend on the processing

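The number of genes past the threshold was 5586 (3024 higher and 2562 lower in HC). It lay between 4767 and 5697 on leaving out 1 of the 9 arrays, with 2516 to 3060 higher, 2242 to 2637 lower and 27 to 31 pairs in opposite directions. With a 2-fold minimum added it was 2183 (1086 higher and 1097 lower), since that rule keeps a part of the calls, and the pairs were 21. Other settings gave 3973 to 5554, and no gene called in both a setting and the comparison as reported changed sign. The share of calls that were higher was 54.1%, 48.9% after median centring and 48.7% after repeated quantile normalization. The replicate numbers were not taken to pair samples: deviations of same-numbered HC and EC arrays correlated at 0.04, 0.063 and 0.145, and replicates 1 and 3 of HC, but not 2, correlated best with their own number. With the replicate block 5434 genes passed (2940 higher and 2494 lower) and 30 pairs moved in opposite directions. Of 787 named genes past the threshold, 687 stayed past it in every setting run for single genes and 100 did not in at least 1, of which 59 only on leaving out an array; 15 others passed in some setting. Of 2958 recomputed family counts, 198 moved by over 1.5 times. Levels near background limit the differences given as bounds.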

Other observations

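The table also held 303 microRNA genes, singled out after their values were seen. Their probe sets read the transcribed locus or precursor and not the mature RNA. At the threshold 16 (5.3%) were higher in HC, a share below the 14.8% of all genes, and 0 lower, and 218 were at or under background in both groups. Some members of polycistronic loci were among the 16. On chromosome 14, Mir17 averaged 7.32 in HC and 5.81 in EC (n = 3 each) and Mir18 averaged 6.61 in HC and 5.37 in EC (n = 3 each). On chromosome 8, Mir27a averaged 6.995 in HC and 5.54 in EC (n = 3 each), Mir23a averaged 6.71 in HC and 5.63 in EC (n = 3 each) and Mir24-2 averaged 6.31 in HC and 5.29 in EC (n = 3 each). Adjacent members of a locus come from 1 primary transcript and are not separate measurements. The mature sequences from RefSeq (GRCm38.p6) are shown for the strand of each hairpin best known from blood, with the seed (bases 2 to 8) in capitals.
mmu-miR-17-5p (chr14:115043684-115043706, + strand): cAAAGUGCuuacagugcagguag
mmu-miR-18a-5p (chr14:115043867-115043889, + strand): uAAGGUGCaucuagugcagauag
mmu-miR-27a-3p (chr8:84208727-84208747, + strand): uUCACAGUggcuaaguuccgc
mmu-miR-23a-3p (chr8:84208563-84208583, + strand): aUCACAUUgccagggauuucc
mmu-miR-24-3p (chr8:84208875-84208896, + strand): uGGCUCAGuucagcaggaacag
mmu-miR-221-3p (chrX:19146307-19146329, - strand): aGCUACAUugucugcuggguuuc
mmu-miR-222-3p (chrX:19146901-19146923, - strand): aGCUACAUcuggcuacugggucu
Mir221 and Mir222, neighbours on chromosome X whose mature forms share the seed GCUACAU, differed by 0.64 and 0.51 (adjusted p = 0.000509 and 0.0119), with both groups at or under background. Mir17 had an adjusted p of 0.00566, Mir18 of 0.0181, Mir27a of 0.00934, Mir23a of 0.000122 and Mir24-2 of 0.00536.

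Of the 1289 olfactory and vomeronasal receptor genes, 24 (1.9%) passed the threshold as higher in HC and 5 (0.4%) as lower. Of these receptor genes, 68 were above background in at least 1 group. Among all 7089 genes above background in neither group, 286 passed the threshold.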
